A study of Mus musculus with 8 samples.

Results

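Replication-dependent histone genes were followed in JUN TetON mouse embryonic stem cells (ESCs) in which JUN had been switched on, with or without BAF bromodomain inhibitors. The members were all rows of the deposited table whose name starts with Hist1h, Hist2h, Hist3h or Hist4h, which gave 70 of 50600 rows. They comprised 6 H1, 20 H2A, 19 H2B, 12 H3 and 13 H4 genes, and 3 of them (Hist1h2aj, Hist1h2al and Hist3h2bb-ps) are annotated as pseudogenes. A member was counted as detected when its mean over the 8 libraries was at least 1, and 25 members (35.7%) were detected against 13101 (25.9%) of all rows. The values are TPM, which sets a gene against its transcript length and against its library, and the authors made them whole numbers.

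The RNA-seq held 8 libraries in 4 groups of 2. All cells were of 1 line, c-Jun TetOn ESCs (OG2) of mixed 129SVJ, C57B6 and CBA background at passage 12, kept without feeders in 2i medium, and all of them received 2 µg/ml doxycycline, which turns on the JUN transgene. The groups differed only in what was added: DMSO (the solvent), PFI-3 (a ligand of the BRG1 bromodomain), BI-9564 (a ligand of the BRD9 and BRD7 bromodomains) or both compounds (P+B). The labels give 6 h of treatment for every library, and no library without doxycycline was used here, so that JUN induction itself cannot be assessed here. That the 2 libraries of a group came from separate cultures is not stated, so p-values measure only the spread between these libraries.

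Replication-dependent histone genes supply the core histones H2A, H2B, H3 and H4 and the linker histone H1 that package newly copied DNA, and they are transcribed mainly in S phase. Their messengers lack introns and usually end in a conserved stem-loop instead of a poly(A) tail. Stem-loop binding protein (SLBP) holds this hairpin, and the U7 snRNP with its cleavage factors cuts the transcript just after it. Histone variants such as H3.3, H2A.Z and H1.0 come from separate genes that are expressed outside S phase too and whose messengers carry poly(A) tails. The libraries here were made from RNA captured on oligo(dT) beads, so a histone messenger without a poly(A) tail is largely lost before sequencing, and the values describe the captured part only.

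The hairpin was found in an annotated transcript (GENCODE M21, GRCm38) of 44 of the 70 members, in 17 of the 25 detected (68%) and in 27 of the 45 others (60%). The stem-loops below are of members high within their type, given because the hairpin is the feature that sets these messengers apart from poly(A) messengers. Each is written 5′ to 3′ on the strand of the gene, with the 16-base hairpin (2 strands of 6 bases around a loop of 4) in capitals and up to 5 bases on either side.
Hist1h1c (H1, chr13:23739507-23739532, plus strand): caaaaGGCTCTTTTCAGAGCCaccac
Hist1h2ap (H2A, chr13:21833026-21833049, minus strand): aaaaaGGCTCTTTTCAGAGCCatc
Hist1h2ae (H2A, chr13:23570663-23570688, minus strand): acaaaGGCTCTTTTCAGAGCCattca
Hist1h2bk (H2B, chr13:22036295-22036320, plus strand): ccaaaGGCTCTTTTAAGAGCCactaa
Hist1h3d (H3, chr13:23576239-23576264, plus strand): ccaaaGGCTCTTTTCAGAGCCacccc
Hist1h3c (H3, chr13:23745042-23745067, minus strand): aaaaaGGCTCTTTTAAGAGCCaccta
Hist1h4i (H4, chr13:22040961-22040986, minus strand): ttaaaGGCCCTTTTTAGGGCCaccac
Hist1h4n (H4, chr13:21831793-21831818, minus strand): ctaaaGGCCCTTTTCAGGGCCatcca
The commonest hairpin, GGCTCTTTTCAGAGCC, was shared by 26 members of the H1, H2A, H2B and H3 types. All 11 H4 members with a hairpin had stems of other letters, with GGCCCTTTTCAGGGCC in 7 of them. The annotated transcript ran on for more than 100 bases past the hairpin in 22 members, namely 8 of the 25 detected (32%) and 14 of the 45 others (31.1%). Both features were searched only inside annotated transcripts. Some of these are short, such as 312 bases for Hist1h4k and 393 for Hist1h2ai, and a hairpin past the annotated end would be missed. A member without a hairpin here is thus not shown to lack it. The shares depend on the annotation and cannot decide whether either feature separates detected from undetected members. Hist1h1c is annotated with 840 bases after its hairpin, Hist1h3d with 752, Hist1h4i with 330, Hist1h2bk with 30 and Hist1h2ap with 3. Hist1h2bc, the H2B gene with the highest value of all members, has no hairpin in its annotated transcript. That transcript has 2 exons: the coding part ends 9 bases before the end of the first exon (chr13:23684199-23684621), and after an intron of 7554 bases the second exon (chr13:23692176-23692908) adds 733 bases of 3′ UTR.

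Members of the H2A and H2B types often lie head to head, and 14 such pairs had starts 173 to 306 bases apart. The octamer ATTTGCAT, which POU-domain factors such as OCT1 and OCT4 bind, was searched in promoters of 300 bases (250 before to 50 after the start, RefSeq, GRCm38.p6) on both strands. It was found in 13 of the 61 members with a promoter in that table (21.3%), in 7 of 17 H2A and 6 of 16 H2B genes and in no H1, H3 or H4 gene, against 1.74% of all 32851 promoters. The motif lay between the starts of 7 of the 14 pairs. In 3 pairs the same site was counted for both genes, since their promoter windows overlap, so the counted members are not all separate sites. The stretches below are shown because each pair holds a detected H2B member, with the octamer in capitals and written on the strand of the gene named first.
Hist1h2bk, shared with Hist1h2ah (chr13:22035777-22035820, plus strand): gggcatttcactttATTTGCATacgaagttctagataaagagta
Hist1h2ac, shared with Hist1h2bc (chr13:23684044-23684103, minus strand): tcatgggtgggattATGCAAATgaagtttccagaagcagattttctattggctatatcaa
Hist1h2bg, shared with Hist1h2ae (chr13:23571327-23571386, plus strand): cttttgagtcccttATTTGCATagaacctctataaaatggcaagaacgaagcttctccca
Both genes of a pair were detected in 3 of the 14 pairs, one gene in 7 and neither in 4. The mean value was 6.13 for Hist1h2ah and 5.75 for Hist1h2bk, 3.63 for Hist1h2ae and 1.13 for Hist1h2bg, but 0.25 for Hist1h2ac and 21.5 for Hist1h2bc. A CCAAT box (CCAAT, either strand) was present in 52 of the 61 promoters (85.2% against 37.4% of all promoters), in every H1, H2A, H2B and H3 promoter but in 3 of 12 H4 promoters. TATAA was present in 48 (78.7% against 24.9%). The octamer was found in 5 of the 21 detected members with a promoter (23.8%) and in 8 of the 40 others (20%). Such matches describe letters in a window and say nothing about binding.

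The libraries carried the markers of ESCs, with Pou5f1 at 1104 to 1333 and all 10 markers of the ESC list tested, while the 10 fibroblast markers summed to 0 to 5 and 7 of them were at 0 in all libraries. Jun was at 1970 and 2877 (DMSO), 1570 and 2227 (PFI-3), 2071 and 3011 (BI-9564) and 1569 and 2159 (P+B). It was thus higher in replicate 2 of every group, with a log2 change of 0.51 between replicate 2 and replicate 1 that was not called. Each library summed to 991574 to 991897. TPM keeps no number of reads, so the depth and the counting error are unknown. Same-numbered libraries deviated together: between replicate 2 and replicate 1, all 10 ESC markers had log2 changes below 0 (median −0.36) and 38 of 40 DNA replication genes had log2 changes above 0 (median 0.10), so the replicate number was also fitted as a block. Between treatments, all 10 ESC markers were above 0 with PFI-3 against DMSO (median 0.42, 0 called) and all 10 below 0 with BI-9564 against PFI-3 (median −0.64, 1 called and 6 with the block). With P+B against DMSO 5 were above and 5 below (1 called), and the largest changes were −0.93 for Tdgf1 (adjusted p = 0.00916, limma), 0.74 for Esrrb (0.120, and 0.00486 and called with the block) and 0.52 for Klf4 (0.189), while Jun had −0.37 (0.437). The call on Tdgf1 was lost without any 1 of the DMSO or P+B libraries (0.0721 to 0.0861) and with only the 4 libraries compared (0.100). The part of these differences in the results on histone genes was not tested. RNAs that have no poly(A) tail were near 0 as well, with a sum of 2 to 36 over 19 such RNAs and 10 of them at 0 in all libraries. Among these, Rn7s1 and Rn7s2, copies of the signal recognition particle RNA, had the same 8 values, from 1 to 12.

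All 70 members together made up a very small share of each library. Their summed value was 93 and 115 (DMSO), 79 and 90 (PFI-3), 128 and 104 (BI-9564) and 140 and 141 (P+B). Both P+B libraries were above the other 6 and both PFI-3 libraries were below them. In bulk libraries fewer cells of a kind, such as cells in S phase, and less RNA per cell cannot be told apart. These sums were 0.00797% to 0.0142% of a library. By contrast, the 12 replication-independent histone genes summed to 3752 to 4564, which was 30.6 to 47.5 times the sum of the members. The 8 members with a mean of at least 5 held 60.1% of the members' sum, and Hist1h2bc alone held 19.3%.

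**Figure D1:**
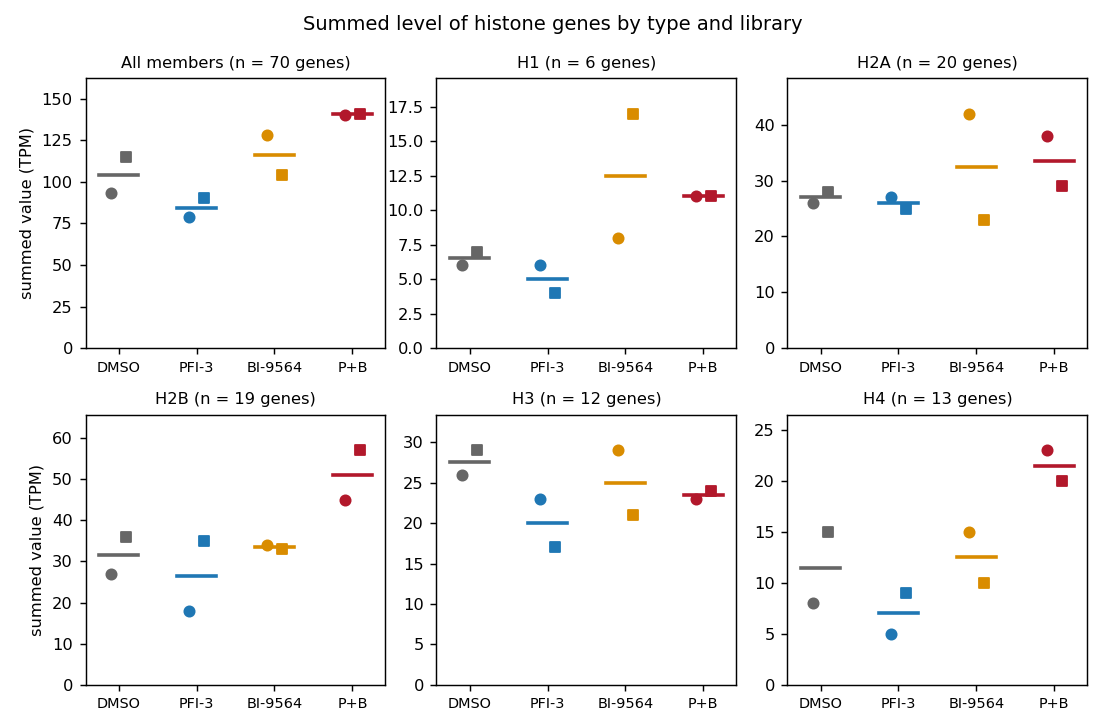
Summed value (TPM, vertical axis from 0) of all members and of each histone type in each library, with circles for replicate 1, squares for replicate 2 and a line for the group mean. The sum over all members was 140 and 141 in the P+B libraries and 79 to 128 in the other libraries. Among the types, only the H2B and H4 panels show such a step. A BI-9564 library was the highest for H1 (17) and for H2A (42), and H3 was at 23 and 24 in the P+B libraries.

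By histone type, the P+B mean was 1.69 times the DMSO mean for H1, 1.24 times for H2A, 1.62 times for H2B, 0.855 times for H3 and 1.87 times for H4. The H2B sum was 27 and 36 (DMSO), 18 and 35 (PFI-3), 34 and 33 (BI-9564) and 45 and 57 (P+B), so that the P+B libraries did not overlap any other group. The H4 sum was 8 and 15 (DMSO), 5 and 9 (PFI-3), 15 and 10 (BI-9564) and 23 and 20 (P+B). Here too the P+B libraries were the highest. The H1 sum was 6 and 7 (DMSO), 6 and 4 (PFI-3), 8 and 17 (BI-9564) and 11 and 11 (P+B). The H2A sum, 26 and 28 (DMSO), 27 and 25 (PFI-3), 42 and 23 (BI-9564) and 38 and 29 (P+B), had the widest gap between replicates with BI-9564. The H3 sum was 26 and 29 (DMSO), 23 and 17 (PFI-3), 29 and 21 (BI-9564) and 23 and 24 (P+B), and its P+B libraries were below both DMSO libraries. An exact two-sided permutation test of 2 libraries against 2 cannot give a p-value below 1 in 3, so these sums were not tested and are a description. When only members with a mean of at least 5 were summed, the difference between P+B and DMSO turned from 6.5 to −2 for H2A and from −4 to 1.5 for H3, and it fell from 10 to 2 for H4, so that the direction for H2A and H3 and most of the difference for H4 rest on members with low values.

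**Figure D2:**
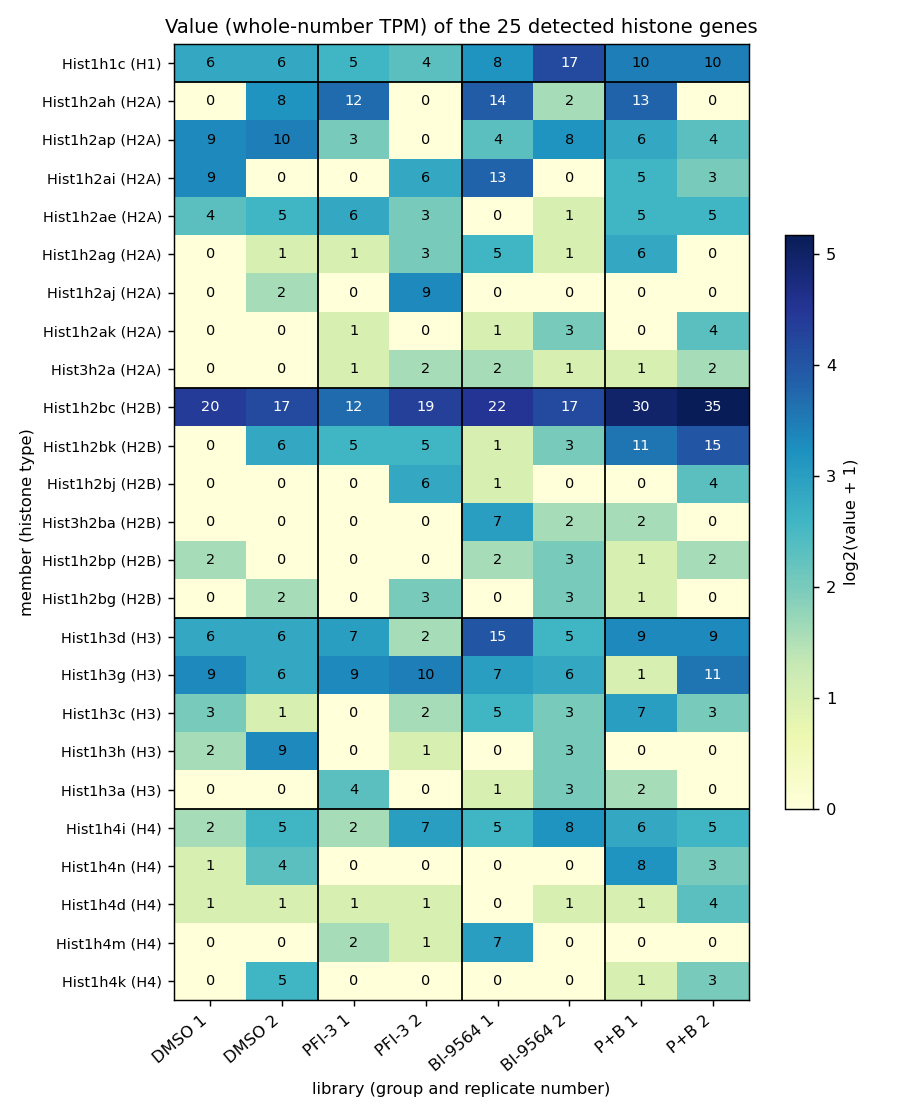
Value (TPM, printed in each cell and coloured as log2(value + 1)) of the 25 detected members (rows, by histone type and falling mean) in the 8 libraries (columns, by group and replicate). Hist1h2bc is dark throughout, at 12 to 35, while 20 of the 25 members are at 0 in at least 1 library.

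H1 compacts the DNA between nucleosomes, and Hist1h1c, which encodes H1.2, was the only detected H1 member. Its value was 6 and 6 (DMSO), 5 and 4 (PFI-3), 8 and 17 (BI-9564) and 10 and 10 (P+B). The BI-9564 and P+B libraries were thus all above the DMSO and PFI-3 libraries, with a wide gap between the 2 BI-9564 libraries. The other somatic H1 genes were at or near 0: Hist1h1a reached 1 in 3 libraries, Hist1h1b reached 1 in 1 library, and Hist1h1d and Hist1h1e were at 0 in all 8. Hist1h1t, which encodes the testis H1, was also at 0 in all 8.

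H2A and H2B form the dimers that flank the H3-H4 tetramer. Among the 8 detected H2A members none was above 0 in every library. Hist1h2ah, the highest, was at 0 and 8 (DMSO), 12 and 0 (PFI-3), 14 and 2 (BI-9564) and 13 and 0 (P+B). Replicate 1 exceeded replicate 2 in 3 groups and the order was turned in DMSO, and in 3 groups a replicate was listed at 0. Hist1h2ap was at 9 and 10 (DMSO), 3 and 0 (PFI-3), 4 and 8 (BI-9564) and 6 and 4 (P+B), and both DMSO libraries were above all others. Hist1h2ai was at 9 and 0 (DMSO), 0 and 6 (PFI-3), 13 and 0 (BI-9564) and 5 and 3 (P+B). It showed no order among groups, since 3 of its values were 0 and the highest stood beside one of them. The remaining detected H2A members (Hist1h2ae, Hist1h2ag, Hist1h2aj, Hist1h2ak and Hist3h2a) had means of 1.13 to 3.63. Of these, Hist1h2aj is an annotated pseudogene and was above 0 in only 2 libraries.

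Hist1h2bc was the highest member of all, with 20 and 17 (DMSO), 12 and 19 (PFI-3), 22 and 17 (BI-9564) and 30 and 35 (P+B). Both P+B libraries were above the other 6, and its replicates were close, with a within-group SD of 0.276 on the log2 scale. Hist1h2bk was at 0 and 6 (DMSO), 5 and 5 (PFI-3), 1 and 3 (BI-9564) and 11 and 15 (P+B). Again the P+B libraries were the highest, but the DMSO libraries differed from 0 to 6. The third member by mean was a tie of 2 genes: Hist1h2bj was at 0 and 0 (DMSO), 0 and 6 (PFI-3), 1 and 0 (BI-9564) and 0 and 4 (P+B). Hist3h2ba was at 0 in both DMSO and both PFI-3 libraries, at 7 and 2 with BI-9564, and at 2 and 0 with P+B. Hist1h2bp and Hist1h2bg completed the H2B type at means of 1.25 and 1.13. The testis H2A and H2B genes Hist1h2aa and Hist1h2ba were at 0 in all libraries.

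H3 and H4 form the central tetramer of the nucleosome. Hist1h3d and Hist1h3g had the same mean of 7.38. Hist1h3d was at 6 and 6 (DMSO), 7 and 2 (PFI-3), 15 and 5 (BI-9564) and 9 and 9 (P+B). Hist1h3g was at 9 and 6 (DMSO), 9 and 10 (PFI-3), 7 and 6 (BI-9564) and 1 and 11 (P+B). Its lowest and highest values were thus the 2 P+B libraries. Hist1h3c followed with 3 and 1 (DMSO), 0 and 2 (PFI-3), 5 and 3 (BI-9564) and 7 and 3 (P+B). Hist1h3h and Hist1h3a, with means of 1.88 and 1.25, were at 0 in 4 libraries each.

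Hist1h4i was the H4 member with the highest mean, 5, with 2 and 5 (DMSO), 2 and 7 (PFI-3), 5 and 8 (BI-9564) and 6 and 5 (P+B). The groups overlapped. Hist1h4n was at 1 and 4 with DMSO, at 0 in all PFI-3 and BI-9564 libraries, and at 8 and 3 with P+B. Hist1h4d, with a mean of 1.25, was at 1 in both DMSO and both PFI-3 libraries, at 0 and 1 with BI-9564, and at 1 and 4 with P+B. Hist1h4m had the same mean and was listed at 0 in all DMSO and P+B libraries, at 2 and 1 with PFI-3 and at 7 and 0 with BI-9564. Hist1h4n shares 83.2% of its annotated sequence with Hist1h4m, and Hist1h4m shares 89.8% with Hist1h4n. The values of Hist1h4n and Hist1h4m are therefore uncertain as values of single genes. Whether reads of one were assigned to the other was not tested. All H4 genes encode the same protein.

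Of the 45 members under the detection limit, 12 were at 0 in all libraries and 33 had a value above 0 somewhere. Of these 33, 16 were above 0 in 1 library, 8 in 2 and 9 in 3 or more, and no single value passed 4. The detected members nearest the limit (Hist1h2ak, Hist1h2bg, Hist1h4k and Hist3h2a) had a mean of 1.13, and the undetected members nearest to it (Hist1h2ad, Hist1h2af and Hist2h2aa1) had a mean of 0.875. Detection differed between gene clusters. On chromosome 13, all 5 members between 22035164 and 22043676 were detected, 9 of 19 between 21715763 and 21837530, and 9 of 29 between 23531050 and 23764406. None of the 10 members on chromosome 3 (the Hist2 cluster, 96219865 to 96270132) was detected, and they summed to 1 to 5 in a library. Of these, Hist2h2aa1, Hist2h2aa2, Hist2h2bb, Hist2h3b and Hist2h3c1 each share 100% of their annotated sequence with an overlapping gene (Gm20633, Gm20632, Gm20628 or Gm20634). The share found in no other gene was 35.2% to 45.0% for Hist2h2ab, Hist2h2ac and Hist2h3c2. It was 99.0% for Hist2h4 and 100% for Hist2h2be. Whether reads of this cluster were assigned to other genes was not tested. A value of 0 in a table of whole-number TPM is a listed 0 and does not show that the messenger was absent.

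Histone genes of a type are close copies of each other, and reads from shared sequence can be assigned to several members. The share of 50-base windows of a member's annotated transcripts found in no other gene had a median of 45.5% over the members. It was 91.5% for Hist1h1c, 75.2% for Hist1h3d, 71.1% for Hist1h4i and 69.4% for Hist1h2bc, but 45.9% for Hist1h3g, 25.8% for Hist1h2bk, 7.87% for Hist1h2ah and 6.93% for Hist1h2ap. Hist1h2ah shares 87.4% of its windows with Hist1h2ad, and Hist1h2ap shares 93.1% with Hist1h2ao. The values of members under 50% are therefore uncertain as values of single genes. The 12 detected members at or above 50% were at 0 in a median of 1 library and summed to 44 and 43 (DMSO), 38 and 43 (PFI-3), 67 and 64 (BI-9564) and 75 and 75 (P+B). The other 13 were at 0 in a median of 4 libraries and summed to 30 and 51, 33 and 41, 53 and 26, and 51 and 47 in the same order. In each group the replicates lay closer together in the first set. Hist3h2a shares 31.5% of its windows with Trim17, an overlapping gene on the same strand. All 8 detected H2A members overlap an annotated gene on the other strand, and since no source states whether the counting used strand, reads from the partner cannot be told apart.

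**Figure D3:**
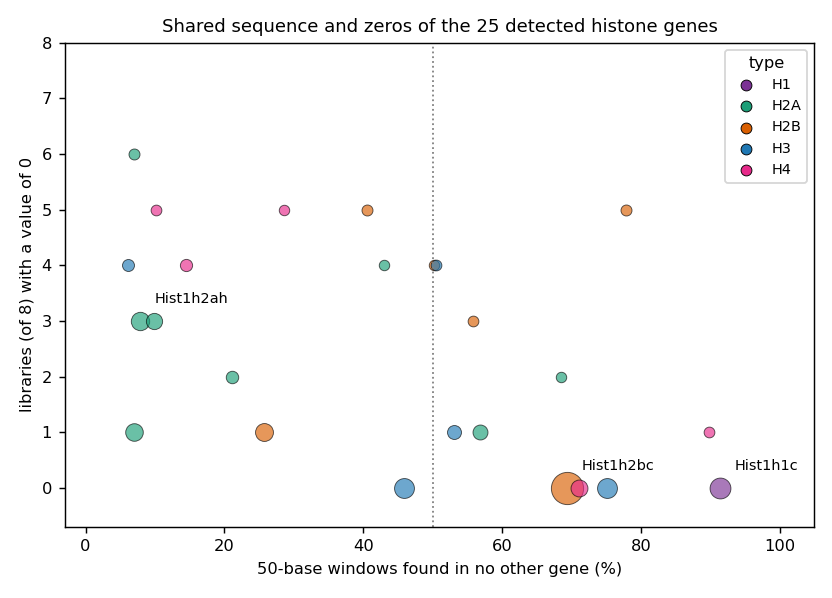
Share of 50-base windows found in no other gene (horizontal axis, %) against the number of libraries at 0 (vertical axis) for the 25 detected members, with point area growing with the mean value and colour for histone type. The dotted line marks 50%, and 4 of the 5 members above 0 in every library lie to its right, among them Hist1h2bc at 69.4% and Hist1h1c at 91.5%.

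The question of the comparisons was whether inhibiting the bromodomains of BRG1, of BRD9 and BRD7, or of all of them changes expression under JUN. Differences were fitted with limma on log2(value + 1) over all 4 groups for the 10222 genes whose mean reached 5, which include 8 members. A gene was called at an adjusted p-value (Benjamini-Hochberg over all 10222 genes) under 0.05 and a change of at least 1.5-fold. With P+B against DMSO 0 of 8 members were called, while 4% of all tested genes were. At an unadjusted p-value under 0.05 there were 2 members, Hist1h2bc and Hist1h2bk, beside 22.6% of all tested genes. The group means of Hist1h2bk were 3 (DMSO), 5 (PFI-3), 2 (BI-9564) and 13 (P+B). That gene thus passed the filter through the P+B libraries, and its changes with P+B are not independent of the filter. Hist1h4i was at the filter limit with a mean of 5, and its group means were 3.5 (DMSO), 4.5 (PFI-3), 6.5 (BI-9564) and 5.5 (P+B). It thus passed the filter through the BI-9564 and P+B libraries. The counts and medians of the 8 members are therefore not independent of the filter in any comparison. Of the 8, 6 had fitted changes above 0 and 2 below, with a median log2 fold change of 0.56 against 0.06 for all tested genes. Without DMSO replicate 1, the library in which Hist1h2bk and Hist1h2ah were listed at 0, the median was 0.31.

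Hist1h2bc had a log2 fold change of 0.78 ± 0.24 (SE) with P+B against DMSO and an adjusted p-value of 0.0997. Hist1h2bk had 2.39 ± 0.81 with an adjusted p-value of 0.133, a value that depends on how the listed 0 is handled: it was 2.89 with a pseudocount of 0.5 and 1.27 with a pseudocount of 5. Without DMSO replicate 2 it was 3.79 with an adjusted p-value of 0.0437, which was past the threshold, and without DMSO replicate 1, where it was listed at 0, it was 0.99 with an adjusted p-value of 0.358. Hist1h1c had 0.65 ± 0.34 with an adjusted p-value of 0.303, and Hist1h3d 0.51 ± 0.55 with 0.630. Of the 25 detected members, 5 (Hist1h1c, Hist3h2a, Hist1h2bc, Hist1h2bk and Hist1h3d) had both P+B libraries above both DMSO libraries, which is 20% against 26% of the 13101 genes with means of 1 or more. Hist1h2ap and Hist1h3h had both P+B libraries below, against 17.5% of those genes. Hist1h3h had group means of 5.5 (DMSO), 0.5 (PFI-3), 1.5 (BI-9564) and 0 (P+B), so it was detected largely through the DMSO libraries. Its place in counts against DMSO is not independent of the detection limit.

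**Figure D4:**
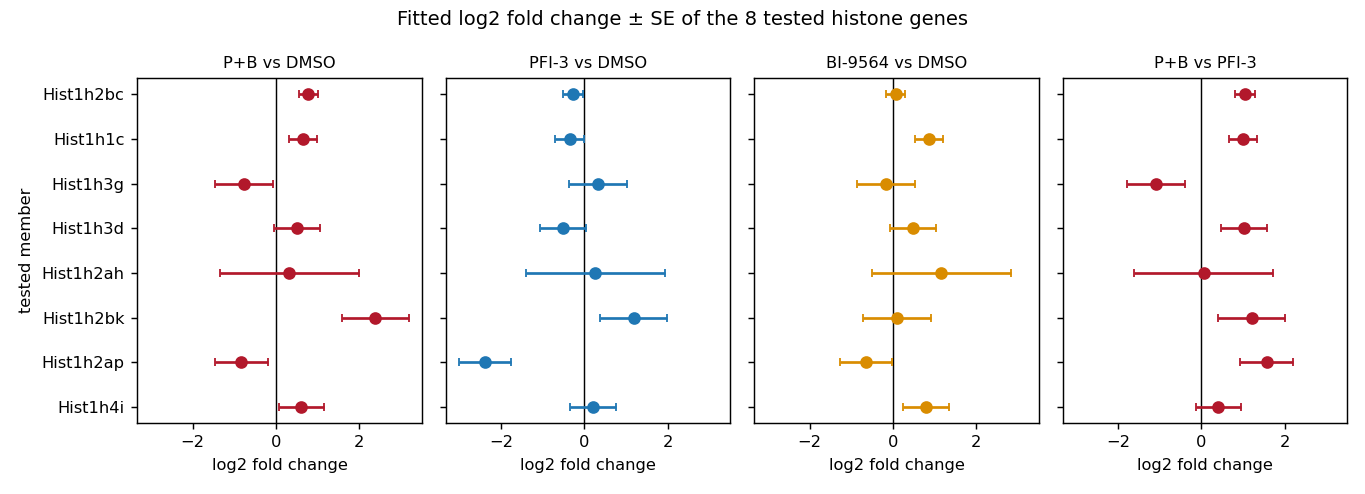
Fitted log2 fold change (horizontal axis, points) with its SE (bars) for the 8 tested members (rows, by falling mean) in 4 comparisons. In the comparison of P+B with DMSO Hist1h2bc stands at 0.78 and Hist1h2bk at 2.39, and the SE of Hist1h2ah spans 0 in each panel.

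With PFI-3 against DMSO 0 members were called, as were 0% of all tested genes, and 1 member had an unadjusted p-value under 0.05, as did 6.79% of all tested genes. This was Hist1h2ap, with a log2 fold change of −2.39 ± 0.63 and an adjusted p-value of 0.528. Its group means were 9.5 (DMSO), 1.5 (PFI-3), 6 (BI-9564) and 5 (P+B). It thus passed the filter through the DMSO libraries, and its changes against DMSO are not independent of the filter. The change was −1.39 without PFI-3 replicate 2, where it was listed at 0, and −1.20 with a pseudocount of 5. The median over the 8 members was −0.03 against 0.02 for all tested genes. Among the detected members, 2 had both PFI-3 libraries above both DMSO libraries (14.9% of genes with a mean of at least 1) and 4 had both below (11.8%). Hist1h3h, detected largely through the DMSO libraries, is among these 4.

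With BI-9564 against DMSO 0 members were called against 0.108% of all tested genes, and 1 member, Hist1h1c, had an unadjusted p-value under 0.05, as did 14.9% of all tested genes. Hist1h1c had a log2 fold change of 0.86 ± 0.34 and an adjusted p-value of 0.299, and the change was 0.36 without BI-9564 replicate 2. The median over the members, which include Hist1h4i at the filter limit as given above, was 0.29 against 0.02 for all tested genes. It was −0.06 without BI-9564 replicate 1 and 0.67 without DMSO replicate 2, so its direction rests on single libraries. Both BI-9564 libraries were above both DMSO libraries for 5 detected members (21% of genes with a mean of at least 1) and below for 3 (16.5%). Among the 5 were Hist3h2ba, with means of 0 (DMSO), 0 (PFI-3), 4.5 (BI-9564) and 1 (P+B), and Hist1h2ak, with 0, 0.5, 2 and 2. Their detection rests in part on the BI-9564 libraries, so this count is not independent of the detection limit.

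P+B was also compared with each compound alone, with the same P+B libraries. Against PFI-3 0 members were called and 1.31% of all tested genes were, with 3 members at an unadjusted p-value under 0.05 (Hist1h2bc, Hist1h1c and Hist1h2ap) beside 16.6% of all tested genes. Of the 8 members, 7 had changes above 0, with a median of 1.02 against 0.03 for all tested genes. Hist1h2bc had 1.05 ± 0.24 and an adjusted p-value of 0.0790, and with the replicate number as a block the adjusted p-value was 0.0474, which made it the only member called in that fit, in which 3.43% of all tested genes were called. Hist1h1c had 1.01 ± 0.34 with an adjusted p-value of 0.195, and Hist1h2bk 1.21 ± 0.81 with 0.50. Both P+B libraries were above both PFI-3 libraries for 9 detected members (21.8% of genes with a mean of at least 1) and below for 1 (17%). Among the 9 were Hist1h4n and Hist1h4k, with means of 5.5 and 2 with P+B but 0 with PFI-3 and with BI-9564. Their detection rests in part on the P+B libraries, so this count is not independent of the detection limit.

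Against BI-9564 0 members were called and 0.196% of all tested genes were, with Hist1h2bc and Hist1h2bk at an unadjusted p-value under 0.05 beside 7.97% of all tested genes. Hist1h2bc had 0.72 ± 0.24 with an adjusted p-value of 0.487, and Hist1h2bk 2.29 ± 0.81 with 0.504. The median was −0.18 against 0.02 for all tested genes, and it was 0.18 without BI-9564 replicate 2 and 0.05 without P+B replicate 2. Both P+B libraries were above both BI-9564 libraries for 5 detected members (16%) and below for none (13%). Hist1h4n and Hist1h4k are among these 5 too, so this count also depends on the detection limit. Between the single compounds, BI-9564 against PFI-3, 0 members were called and 0.108% of all tested genes were, with Hist1h1c and Hist1h2ap at an unadjusted p-value under 0.05 beside 14.2% of all tested genes. Hist1h1c had 1.22 ± 0.34 with an adjusted p-value of 0.202, and 0.72 with 0.513 without BI-9564 replicate 2. The median was 0.74 against 0.00 for all tested genes. Both BI-9564 libraries were above both PFI-3 libraries for 5 detected members (18.9%) and below for 3 (17.5%). Hist3h2ba, whose detection rests in part on the BI-9564 libraries, is among these 5. The comparisons share groups, so their medians are not separate evidence.

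A fit with the filter lowered to a mean of at least 1, which holds all 25 detected members among 13101 genes, called 0 members in any comparison, with 1 to 5 members at an unadjusted p-value under 0.05 beside 6.48% to 20.5% of all genes. The share of all genes called there was 2.59% with P+B against DMSO and 0.588% with P+B against PFI-3, 0.0153% with P+B against BI-9564, 0.817% between the replicates and 0% in the other comparisons. In this fit the lowest adjusted p-value of a member was 0.132 with P+B against DMSO (Hist1h2bc), 0.124 with P+B against PFI-3 (also Hist1h2bc) and 0.650 with PFI-3 against DMSO (Hist1h2ap). For Hist1h2ae, which was at 4 and 5 (DMSO), 6 and 3 (PFI-3), 0 and 1 (BI-9564) and 5 and 5 (P+B), the change with BI-9564 against DMSO was −1.95 with an adjusted p-value of 0.182. With the replicate number as a block and a mean of at least 5, the share of all genes called was 7.02% for P+B, 0% for PFI-3 and 1.53% for BI-9564 against DMSO, 3.43% for P+B against PFI-3, 0.802% for P+B against BI-9564 and 1.48% for BI-9564 against PFI-3, and Hist1h2bc against PFI-3 was the only call among the members.

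The spread between replicates was wide for most members. Among 3971 genes with means between 5 and that of Hist1h2bc, the median within-group SD was 0.26 on the log2 scale. Hist1h2bc, at 0.276, was above 54.2% of these genes, and Hist1h1c, at 0.366, above 74.5%. The other 6 tested members had 0.651 to 2.34 and were above 94.2% to 99.7% of these genes. Their means, 5 to 7.38, were low in that range, and the genes were not matched on level. Between replicate 2 and replicate 1 over all groups 0 members were called against 1.32% of all tested genes, with 1 member at an unadjusted p-value under 0.05 (Hist1h2bk) beside 19.8% of all tested genes and a median of 0.12. Hist1h2ah had −1.66 ± 1.07 with an adjusted p-value of 0.443, and its change was −3.28 without DMSO replicate 1 and −3.28 without DMSO replicate 2. Either refit leaves 1 DMSO library, which adds nothing to the replicate change. The 2 refits thus rest on the same other groups and are not separate results. Without any 1 of the PFI-3 or P+B libraries the change of Hist1h2ah was −0.99 to −0.95.

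The genes listed as replication-independent histone genes were measured at far higher levels in the same libraries. H2afz, which encodes H2A.Z, was at 1302 to 1459, H3f3a and H3f3b, which both encode H3.3, at 678 to 832 and 563 to 883, and H2afx, which encodes H2A.X and whose messenger is known in a stem-loop form and a polyadenylated form, at 585 to 765. H1foo, the oocyte H1, was at 0 in all libraries. Of the 11 tested, 2 rose with P+B against DMSO and none fell, beside 4% of all tested genes called. H1fx, which encodes the linker histone H1.10, was at 52 and 52 (DMSO), 56 and 66 (PFI-3), 103 and 94 (BI-9564) and 95 and 100 (P+B). All 4 libraries with BI-9564, alone or in P+B, were above the other 4. Its log2 fold change was 0.89 ± 0.11 with P+B against DMSO (adjusted p = 0.00517, limma), and the call was lost without DMSO replicate 1 (0.0572), DMSO replicate 2 (0.0546) or P+B replicate 2 (0.0594), or with only the 4 libraries compared (0.100). H1f0, which encodes H1.0, was at 25 and 22 (DMSO), 28 and 35 (PFI-3), 39 and 37 (BI-9564) and 38 and 50 (P+B). It rose by 0.87 ± 0.17 with P+B (adjusted p = 0.0320, limma), a call that was lost when any 1 of the 8 libraries was left out (0.0542 to 0.180), with no filter (0.0831), without the variance trend (0.0528) and with only the 4 libraries compared (0.162).

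H3f3b was at 612 and 603 (DMSO), 570 and 563 (PFI-3), 863 and 860 (BI-9564) and 870 and 883 (P+B). As for H1fx, the 4 libraries with BI-9564 were above the other 4, and replicates differed little. Its change was 0.53 ± 0.06 with P+B against DMSO (adjusted p = 0.00301, limma) and 0.50 with BI-9564 against DMSO (adjusted p = 0.0378), both under 1.5-fold. It was 0.63 with P+B against PFI-3 (adjusted p = 0.00702) and 0.60 with BI-9564 against PFI-3 (adjusted p = 0.0207), both past 1.5-fold. The call against PFI-3 was lost for P+B without PFI-3 replicate 1 (0.107), PFI-3 replicate 2 (0.0972) or P+B replicate 2 (0.111), and for BI-9564 without any 1 library (0.0928 to 0.233). It was also lost for both without the variance trend (0.0569 and 0.142) and with only the 4 libraries compared (0.215 and 0.334), for P+B with median centring, where the change of 0.58 was under 1.5-fold, and for BI-9564 at a filter of 1 (0.0524) or with none (0.123). With quantile normalization the change with P+B against DMSO was 0.59 and past 1.5-fold. H3f3a, the other H3.3 gene, was at 678 and 805 (DMSO), 708 and 689 (PFI-3), 771 and 832 (BI-9564) and 692 and 804 (P+B), and its groups overlapped. With BI-9564 against DMSO H1fx changed by 0.91 (adjusted p = 0.0378) and with P+B against PFI-3 by 0.67 (adjusted p = 0.0320), and both calls were lost without any 1 library (0.101 to 0.260 and 0.0683 to 0.210). They were also lost at a filter of 1 (0.0727 and 0.0527), with no filter (0.144 and 0.0807), without the variance trend (0.109 and 0.0756) and with only the 4 libraries compared (0.334 and 0.249). With BI-9564 against PFI-3 H1fx had 0.69 with an adjusted p-value of 0.0727, and 0.0276 with the replicate number as a block, which was past the threshold. The median over the 11 genes was 0.18 with P+B against DMSO. Whether these changes differ from those of the members was not tested.

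**Figure D5:**
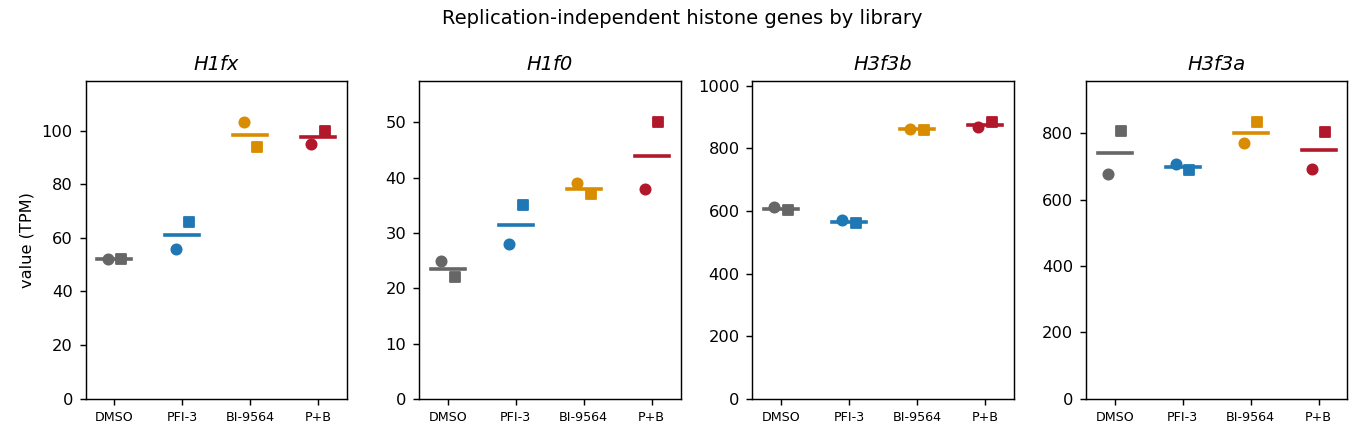
Value (TPM, vertical axis from 0) of 4 replication-independent histone genes in each library, with circles for replicate 1, squares for replicate 2 and a line for the group mean. H1fx and H3f3b are higher in the BI-9564 and P+B libraries (94 to 103 and 860 to 883) than with DMSO or PFI-3 (52 to 66 and 563 to 612), and H3f3a overlaps between groups.

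Genes that transcribe and process histone messengers were all expressed: 30 of 30 listed genes were tested and 0 were called in any comparison. With P+B against DMSO 19 were above 0 and 11 below, with a median of 0.06, equal to that of all tested genes at this precision, and 5 had an unadjusted p-value under 0.05 (22.6% of all tested genes). Slbp, whose protein binds the hairpin, was at 124 and 140 (DMSO), 126 and 130 (PFI-3), 139 and 149 (BI-9564) and 131 and 135 (P+B). Npat, the coactivator of histone gene transcription in S phase, was at 25 and 26 (DMSO), 28 and 26 (PFI-3), 23 and 23 (BI-9564) and 30 and 27 (P+B). The largest changes of the list with P+B were 0.42 for Zcchc6, a uridylyl transferase, −0.41 for Hinfp, a factor of H4 promoters, and 0.33 for Ints11, the nuclease of the Integrator complex, with adjusted p-values of 0.201, 0.360 and 0.0974.

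Histone chaperones carry histones to DNA, and some of them act on newly copied DNA. Of 20 chaperone genes tested 0 were called in any comparison, with a median of 0.03 with P+B against DMSO and 3 at an unadjusted p-value under 0.05 (22.6% of all tested genes). The largest changes were 0.58 for Ubn1, 0.53 for Mms22l and 0.37 for Asf1b, with adjusted p-values of 0.112, 0.110 and 0.0990. Of 40 DNA replication genes tested 0 were called in any comparison without the block, with 12 above 0 and 28 below with P+B against DMSO, a median of −0.05 and 6 at an unadjusted p-value under 0.05 (22.6% of all tested genes). Orc1, of the origin recognition complex, had −0.39, Cdk2, the S phase kinase, −0.39, and Gins2, of the replicative helicase, 0.33, with adjusted p-values of 0.187, 0.0856 and 0.357. With the block 1 was called, Tk1 (thymidine kinase), with −0.61 with BI-9564 against PFI-3 and an adjusted p-value of 0.0302, against 0.0828 without the block.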

How the data were processed

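The authors deposited 1 table of 50600 gene names by 8 libraries, in which each value is a score, namely TPM that they made whole numbers. The submitters' processing notes name bcl2fastq, Bowtie2 2.2.5, RSEM 1.3.0 and mm10, and the annotation is not given in the sources used here. RNA was captured on oligo(dT) beads. Reads cannot be recovered from TPM, so DESeq2, which the authors used, was not run. A pseudocount of 1 was added before taking log2, and the 4 groups entered a single limma fit (limma 3.58.1, R 4.3.3, functions lmFit and eBayes, the latter trended on the mean) with 4 residual degrees of freedom, and the procedure was tested on simulated data. Annotation was GENCODE M21 (70 of 70 members matched) and promoters were RefSeq GRCm38.p6 (61 of 70). Library values are given for the 3 highest detected members of each type and for members called in any fit; of each other list the 3 largest changes with P+B are named, with Slbp, Npat and levels of single genes. Hist1h2ae, H3f3a, H2afz, H2afx, H1foo and Tk1, and the members and genes given with a block or a left-out library, were named after their values were seen. The members and lists were chosen with earlier results of these data known. Replicate numbers were taken to pair the libraries, since the differences between replicates correlated across genes in all 6 pairs of groups (Pearson's r 0.143 to 0.236). Alternatives covered pseudocounts, filters, scaling, the variance trend, the replicate block, the libraries fitted, no fold threshold and each library left out.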

Additional observations from a re-analysis of the deposited data

How the results depend on the processing

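TPM keeps no reads, so precision cannot be stated from depth, and 2 libraries a group limit it. No member was called under pseudocounts of 0.5 or 5, filters at a mean of 1, 20 (1 member left) or none, quantile normalization, median centring, no variance trend or only the libraries compared. With the replicate block 1 member was called with P+B against PFI-3, and beside H1fx, Tk1 and the ESC markers as given above, the block changed no other call among the results repeated here. Leaving out a library gave 0 to 1 called members with P+B against DMSO and between the replicates, and 0 elsewhere. The median log2 fold change of the members moved more: with a pseudocount of 5 to 0.34 (P+B against DMSO), 0.63 (P+B against PFI-3) and 0.32 (BI-9564 against PFI-3), and with quantile normalization to 0.41 (P+B against DMSO). A filter at 1 gave 0.49 (BI-9564 against DMSO), 0.66 (P+B against PFI-3) and 0.34 (BI-9564 against PFI-3). Hist1h2bc alone, at a filter of 20, gave 0.78 (P+B), −0.27 (PFI-3) and 0.066 (BI-9564) against DMSO, 0.72 (P+B against BI-9564) and 0.34 (BI-9564 against PFI-3). No filter gave 0.17 (P+B against DMSO), 0.24 (P+B against PFI-3) and 0 (BI-9564 against DMSO and PFI-3, P+B against BI-9564). Only members with at least 50% unique windows, chosen after seeing the data, gave −0.31 (PFI-3) and 0.64 (BI-9564) against DMSO. Leaving out each library gave 0.31 to 0.66 (P+B), −0.32 to −0.015 (PFI-3) and −0.056 to 0.67 (BI-9564) against DMSO, 0.72 to 1.17 (P+B against PFI-3), −0.18 to 0.18 (P+B against BI-9564), 0.23 to 0.74 (BI-9564 against PFI-3) and −0.087 to 0.25 (replicates). Summing only members with a mean of at least 5 gave P+B minus DMSO of −2 (H2A), 1.5 (H3) and 2 (H4). The cause was not tested, except that fewer or other members enter where the filter changes. Of the repeats for single genes, 368 kept their side of the threshold, 62 lost a call and 8 gained one, with no change of direction among calls.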

Other observations

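Members were also summed by position. The 5 members on chromosome 13 between 22035164 and 22043676 (GRCm38), which include Hist1h2ah, Hist1h2bk and Hist1h4i, summed to 2 in DMSO replicate 1, the lowest library, and to 14 to 36 in the others, with the highest value in P+B replicate 1. The 29 members between 23531050 and 23764406, which include Hist1h2bc, Hist1h1c and Hist1h3d, summed to 60 and 57 (DMSO), 46 and 45 (PFI-3), 63 and 65 (BI-9564) and 76 and 84 (P+B), and these groups did not overlap. The 19 members between 21715763 and 21837530 summed to 8 to 34, and here PFI-3 held both the lowest library (8) and one at 21. These sums were not tested. Of the 70 members, 5 have an annotated transcript of more than 1 exon, and 2 of these, Hist1h2bc and Hist1h2bp, were detected.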
